A study of Mus musculus with 7 samples.

Results

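The genes described here encode the subunits of the mitochondrial respiratory chain and ATP synthase that are made from nuclear DNA. They were chosen by symbol alone: Sdha, Sdhb, Sdhc and Sdhd, and every symbol beginning with Nduf followed by a, b, c, s or v and a digit, with Uqcr, with Cox4i, Cox5, Cox6, Cox7 or Cox8, or with Atp5, pseudogene symbols excepted. The rule found 84 genes in tables of 37468 rows per library: by name, 37 of complex I, 4 of complex II, 8 of complex III, 17 of complex IV and 18 of complex V. Of these, 81 reached 1 FPKM (fragments scaled to transcript length and library size) in at least 1 library and were tested, and Cox4i2, Cox7b2 and Cox8c did not. Cox4i1, the main form of subunit 4 of cytochrome c oxidase, was not analysed here.

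Liver RNA of C57BL/6 mice was measured in 7 libraries of 4 groups. Myod1_active was 1 library of SunTag-dCas9 mice in which Myod1, the gene of a muscle-determining transcription factor, had been activated. Myod1_control was 2 libraries of SunTag-dCas9 mice that served as its controls, SunTag was 2 libraries of SunTag-dCas9 mice, and WT was 2 libraries of wild-type mice. SunTag-dCas9 mice carry a Cas9 that binds DNA without cutting it, with a repeated peptide tag that recruits effector proteins, so all groups except WT share that allele. The sources used here do not give the means of activating Myod1, the treatment of its controls, the promoter of the transgene, or the age and number of the animals. Nothing in the labels says that replicates were separate animals, so the p-values below measure the spread between libraries, which may be technical.

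In the respiratory chain, complex I (NADH dehydrogenase) and complex II (succinate dehydrogenase) pass electrons to coenzyme Q, complex III passes them on to cytochrome c, and complex IV (cytochrome c oxidase) passes them to oxygen. Complex V, ATP synthase, uses the proton gradient that complexes I, III and IV build up. The catalytic cores of complexes I, III and IV and part of the membrane motor of ATP synthase are encoded by mitochondrial DNA, while complex II is encoded wholly in the nucleus. Liver cells hold many mitochondria, and several subunits of complex IV have a second form made mainly in heart and skeletal muscle.

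The libraries fell into 2 experiments. The 3 libraries of the Myod1 experiment had 0.00420, 0.324 and 0.0322 FPKM of Xist, made from the inactive X chromosome of females, and 9.23, 8.26 and 6.97 FPKM of Ddx3y, a Y-linked gene. The SunTag and WT libraries had 56.9 to 82.2 FPKM of Xist and at most 0.0765 FPKM of Ddx3y. Sex and experiment therefore cannot be told apart from the difference between Myod1_control and SunTag, which is given only as background. Myod1 had 3.52 FPKM in the Myod1_active library and was listed at 0 in the other 6 libraries. Albumin, the defining product of hepatocytes, had 28500 to 54093 FPKM in the 7 libraries.

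The nuclear-encoded subunits were among the abundant transcripts of these livers. Of the 84 genes, 76 had a mean of at least 10 FPKM over the 7 libraries, 62 had at least 100 FPKM and 11 had at least 500 FPKM. Together the 84 genes summed to 19554 FPKM in the Myod1_active library and 14338 and 13501 in the Myod1_control libraries, against 30924 and 22949 FPKM in the SunTag libraries and 22264 and 23111 in the WT libraries. The median level of the 76 genes at 10 FPKM or more was 150.3 FPKM in the Myod1_active library and 108 and 104 in the Myod1_control libraries, against 259.8 and 201 FPKM in the SunTag libraries and 186 and 197 in the WT libraries. Both summaries were lower in each of the 3 libraries of the Myod1 experiment than in each of the other 4, and both were highest in the SunTag replicate 1 library. In bulk tissue such as this, fewer cells of a type and less RNA per cell cannot be told apart.

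**Figure D1:**
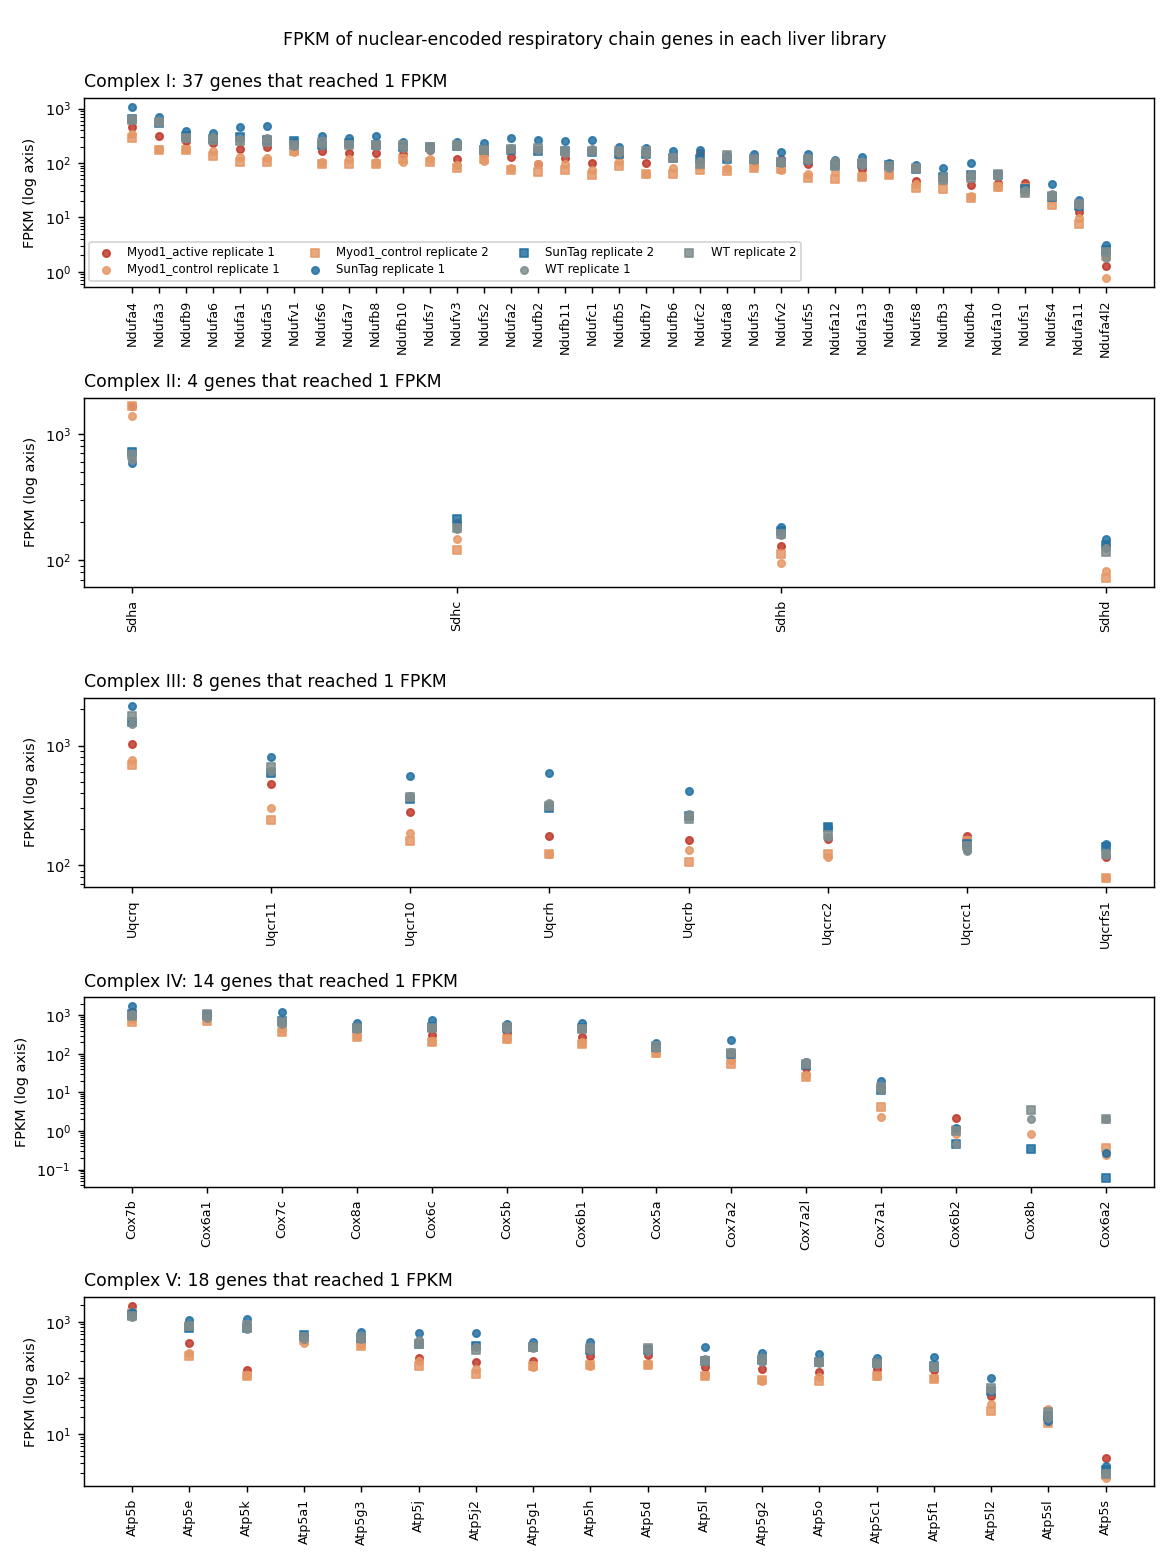
FPKM of the 81 genes that reached 1 FPKM, on a log axis, by complex, with genes in order of mean level and 1 point for each of the 7 libraries; values of 0, which occur for Cox6a2 and Cox8b, cannot be drawn on this axis. In most columns the Myod1_control points lie lowest and the SunTag replicate 1 point highest, while Sdha in complex II has the Myod1 experiment on top.

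FPKM is per length, so levels of different genes can be set side by side within a library, though the ratio of short to long members differed between libraries, as given with the transcript lengths, and the order of genes of unequal length differs with it. Uqcrq, the subunit of complex III that caps its cytochrome b, was the most abundant of the set in the SunTag and WT libraries. It had 1035 FPKM in the Myod1_active library and 752 and 683 in the Myod1_control libraries, against 2128 and 1566 FPKM in the SunTag libraries and 1503 and 1780.3 in the WT libraries. Atp5b, the catalytic beta subunit of ATP synthase, was the most abundant in the Myod1_active library, with 1931 FPKM in the Myod1_active library and 1419.7 and 1461 in the Myod1_control libraries, against 1518 and 1312 FPKM in the SunTag libraries and 1214 and 1268 in the WT libraries. Its levels in the 7 libraries overlapped between the experiments. Among complex IV subunits Cox7b and Cox6a1 were highest, and Cox7b had 1231 FPKM in the Myod1_active library and 818 and 671 in the Myod1_control libraries, against 1753 and 1066 FPKM in the SunTag libraries and 1104 and 997 in the WT libraries. In complex I the highest was Ndufa4, named after complex I though its protein was later placed in cytochrome c oxidase, with 456 FPKM in the Myod1_active library and 348 and 293 in the Myod1_control libraries, against 1095 and 637 FPKM in the SunTag libraries and 686 and 610.4 in the WT libraries. At the other end, Cox8c was listed at 0 in all 7 libraries, Cox7b2 reached 0.0767 FPKM in 1 WT library alone, and Cox4i2, the lung form of subunit 4, lay between 0 and 0.701 FPKM.

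In the Myod1_active library most of the genes lay slightly above the Myod1_control libraries, and none passed the test. On the scale log2(FPKM + 1), fitted for 15744 genes with limma, the median gene was 0.25 higher in the Myod1_active library than in Myod1_control, so differences are given relative to it unless said otherwise. No respiratory chain gene was called at an adjusted p under 0.05 (Benjamini-Hochberg over all genes), where 0.254% of all genes were called. At an unadjusted p under 0.05, 23 of the 81 genes were higher and none was lower, against 17.2% of all genes higher and 2.31% lower. The single Myod1_active library lay above both Myod1_control libraries for 75 of 81 genes, against 61.4% of all genes, and below both for 1, against 16.6%. The median difference of the 81 genes was 0.27 on the log2 scale, and 73 of 81 lay above the median gene. In the transcript length classes used below, from under 600 nt to 2000 nt or more, medians of the set were 0.38, 0.28, 0.21 and 0.02. Other genes of at least 10 FPKM in the same classes had medians of 0.28, 0.23, 0.08 and -0.04, and the contrast was not tested. By complex the medians were 0.28 for I, 0.19 for II, 0.26 for III, 0.30 for IV and 0.22 for V. Myod1_active being 1 library, each SE and p of this comparison takes its spread from the other groups and assumes that the single library varies like them. The unadjusted count of 23 depended on single libraries and on scaling: it was 15 without Myod1_control replicate 1 and 7 without replicate 2, 54 without either SunTag library, and 12 and 13 without WT replicate 1 and 2, all of them higher. With libraries scaled by median ratios it was 2, and with FPKM rescaled to an equal total in every library 50.

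The largest difference in this comparison was that of Cox7a1, the heart and muscle form of subunit 7a of cytochrome c oxidase. It had 14.3 FPKM in the Myod1_active library, against 2.33 and 4.32 FPKM in the Myod1_control libraries, and the SunTag and WT libraries had 11.3 to 19.6 FPKM. The Myod1_active library was thus above both of its controls and within the range of the other experiment. Relative to the median gene the log2 difference was 1.61 (SE 0.423, limma unadjusted p = 0.00724, adjusted p = 0.165). Its ubiquitous counterpart Cox7a2 had 103 FPKM in the Myod1_active library, against 71.3 and 53.8 FPKM in the Myod1_control libraries, a log2 difference of 0.47 with a limma adjusted p of 0.463. The summed level of 12 skeletal muscle markers was 4.91 FPKM in the Myod1_active library and 0.660 and 1.502 in the Myod1_control libraries, against 6.37 and 3.03 FPKM in the SunTag libraries and 4.88 and 3.19 in the WT libraries. Of these 12 markers only Mylpf, a fast muscle myosin light chain, reached 1 FPKM, and the creatine kinase gene Ckm had 0.0194 FPKM in the Myod1_active library. Whether cells other than hepatocytes took part in the Cox7a1 difference was not tested.

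After Cox7a1 came Ndufc2, a membrane-arm subunit of complex I, with 153 FPKM in the Myod1_active library, against 86.7 and 74.9 FPKM in the Myod1_control libraries and a log2 difference of 0.67 (limma adjusted p = 0.203). Its locus holds the short predicted gene Gm16053, with which reads can be shared. Uqcr11, a small subunit of complex III, had 478 FPKM in the Myod1_active library, against 301 and 238 FPKM in the Myod1_control libraries and a difference of 0.58. Sdhd, a membrane anchor of complex II, had 129 FPKM in the Myod1_active library, against 82.3 and 71.7 FPKM in the Myod1_control libraries and a difference of 0.49. Each of these 3 genes was higher in the Myod1_active library than in both controls without passing the adjusted test. The muscle forms Cox6a2 and Cox8b stood at the low end, with differences of -0.63 and -0.69. Both were listed at 0 in the Myod1_active library and did not exceed 0.842 FPKM in Myod1_control.

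In SunTag livers no respiratory chain gene differed from WT by the adjusted test either, where 0.127% of all genes were called. The ubiquitous subunits were slightly higher on balance, and that balance came with 1 library. The median of the 81 genes lay 0.18 above the median gene on the log2 scale, and 75 of 81 lay above it. From the shortest to the longest class of transcripts, medians of the set were 0.20, 0.17, 0.19 and 0.12. Other genes of at least 10 FPKM had medians of 0.16, 0.06, -0.02 and -0.06, and the contrast was not tested. Medians by complex were 0.18 for I, 0.14 for II, 0.23 for III, 0.18 for IV and 0.18 for V. Both SunTag libraries exceeded both WT libraries for 24 of 81 genes, against 13.0% of all genes, and lay below both for 2, against 12.8%. SunTag replicate 1 was the highest of the 4 libraries for 68 of 81 genes, against 36.8% of all genes tested. SunTag replicate 2 lay above both WT libraries for 26 genes and below both for 23, close to the 30.4% and 31.1% of all genes. Without SunTag replicate 1 the median difference was 0.0136, with 45 of 81 genes above the median gene, and without SunTag replicate 2 it was 0.354.

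The largest positive differences between SunTag and WT were those of Cox7c and Atp5j2. Cox7c, a small subunit of complex IV, had 1225 and 728 FPKM in the SunTag libraries, against 602 and 678 FPKM in the WT libraries, and Atp5j2, subunit f of ATP synthase, had 629 and 371 FPKM in the SunTag libraries, against 357 and 316 FPKM in the WT libraries. For both genes the SunTag replicate 1 library stood far above the other 3 libraries, whose values lay close together. The log2 differences were 0.55 (SE 0.291) and 0.51 (SE 0.287), each with a limma adjusted p of 1. In SunTag replicate 1 the summed level of 7 red cell markers was also the highest of all, 6391 and 3921 FPKM in the SunTag libraries, against 2337 and 2358 FPKM in the WT libraries, and its part in these differences was not tested.

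At an unadjusted p under 0.05 by limma, 2 of the 81 genes were lower in SunTag than in WT and none was higher, against 1.07% of all genes lower and 0.883% higher. Without SunTag replicate 2, 33 were higher and 2 lower at that level, and with genes below a mean of 1 FPKM left out, 79 genes remained in the test and none was past it. The 2 lower genes were Cox6a2 and Cox8b, the heart and skeletal muscle forms of subunits 6a and 8. Cox6a2 had 0.269 and 0.0603 FPKM in the SunTag libraries, against 2.002 and 2.04 FPKM in the WT libraries, and the 3 libraries of the Myod1 experiment had 0 to 0.356 FPKM. Cox8b had 0 and 0.342 FPKM in the SunTag libraries, against 2.11 and 3.46 FPKM in the WT libraries. In both genes the WT libraries stood above the other 5 libraries without overlap. Both reached 1 FPKM in the WT libraries alone, so they entered the test only through the group where they were high. Their direction was thus tied to the filter, and their p-values add no independent support. Both had a mean under 1 FPKM and were the genes left out by the filter on means. The log2 difference of Cox6a2 was -1.40 (SE 0.168, limma unadjusted p = 0.000457, adjusted p = 0.232), and that of Cox8b was -1.70 (SE 0.379, limma unadjusted p = 0.00692, adjusted p of 1).

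For 14 of 16 heart muscle markers both WT libraries lay above the other 5 libraries, and the exceptions were Myl4 and Myl7, of which Myl7 had 4.17 and 0.567 FPKM in the SunTag libraries, against 1.28 and 0.753 FPKM in the WT libraries. How many of all genes had the WT libraries in that position was not counted. The summed level of 16 heart markers was 13.7 FPKM in the Myod1_active library and 17.98 and 15.7 in the Myod1_control libraries, against 22.03 and 20.5 FPKM in the SunTag libraries and 75.4 and 72.4 in the WT libraries. Of 12 tested, 4 were lower in SunTag than WT (limma adjusted p under 0.05) and none higher, against 0.127% of all genes either way. The count was 2 without Myod1_control replicate 2 and 3 or 4 without any other single library. The ventricular light chain Myl2 was listed at 0 in the 5 SunTag and Myod1 libraries, as were Myh6 and Myl3, against 15.0 and 14.6 FPKM of Myl2 in the WT libraries. Markers at 0 outside WT could enter the test only through the WT libraries, which fixed their direction. The count of heart markers called is therefore a description and no independent support. Of the sum outside WT, Csrp3 alone gave 13.1 to 17.5 FPKM. The part of heart muscle RNA in the WT values of Cox6a2 and Cox8b was not tested. Of the liver forms of the same subunits, Cox6a1 had 1089.9 and 1056 FPKM in the SunTag libraries, against 859 and 1108 FPKM in the WT libraries, and Cox8a had 622 and 474 FPKM in the SunTag libraries, against 437 and 484 FPKM in the WT libraries, each with a limma adjusted p of 1.

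**Figure D2:**
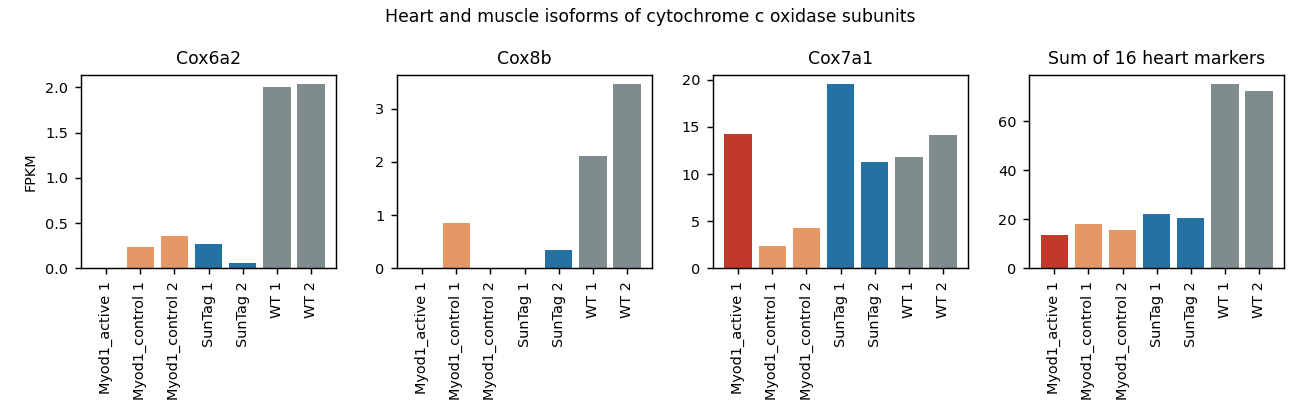
FPKM of Cox6a2, Cox8b and Cox7a1 and the sum of 16 heart muscle markers, 1 bar for each of the 7 libraries. Cox6a2, Cox8b and the heart markers are highest in the 2 WT libraries, whereas Cox7a1 is lowest in the 2 Myod1_control libraries, at 2.33 and 4.32 FPKM.

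Between Myod1_control and SunTag, the comparison across experiments, the respiratory chain genes were lower in Myod1_control with few exceptions. At a limma adjusted p under 0.05, 60 of 81 genes were lower and 1, Sdha, was higher, against 17.0% of all genes lower and 7.30% higher. The median difference was -0.85 on the log2 scale relative to the median gene, which itself was 0.14 lower. Medians by complex were -0.85 for I, -0.54 for II, -1.22 for III, -0.87 for IV and -1.07 for V. Both Myod1_control libraries lay below both SunTag libraries for 73 of 81 genes, against 41.6% of all genes, and above both for 1, against 24.9%. Across all libraries, the 3 of the Myod1 experiment lay below the other 4 for 55 of 81 genes, against 23.6% of all genes, and above them for Sdha alone, against 18.4%.

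These calls depend on few libraries. Without either Myod1_control library, or without either WT library, none of the 81 genes passed the adjusted test; 22 passed without SunTag replicate 1, 67 without SunTag replicate 2, and 1 when only the 4 libraries compared were fitted. At an unadjusted p under 0.05 the count was 70 of 81, where 41.7% of all genes were past it, and 59 to 71 when any 1 of these libraries was left out. The 3 comparisons share libraries, Myod1_control with the first and SunTag with the second, so their values are not independent of each other.

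**Figure D3:**
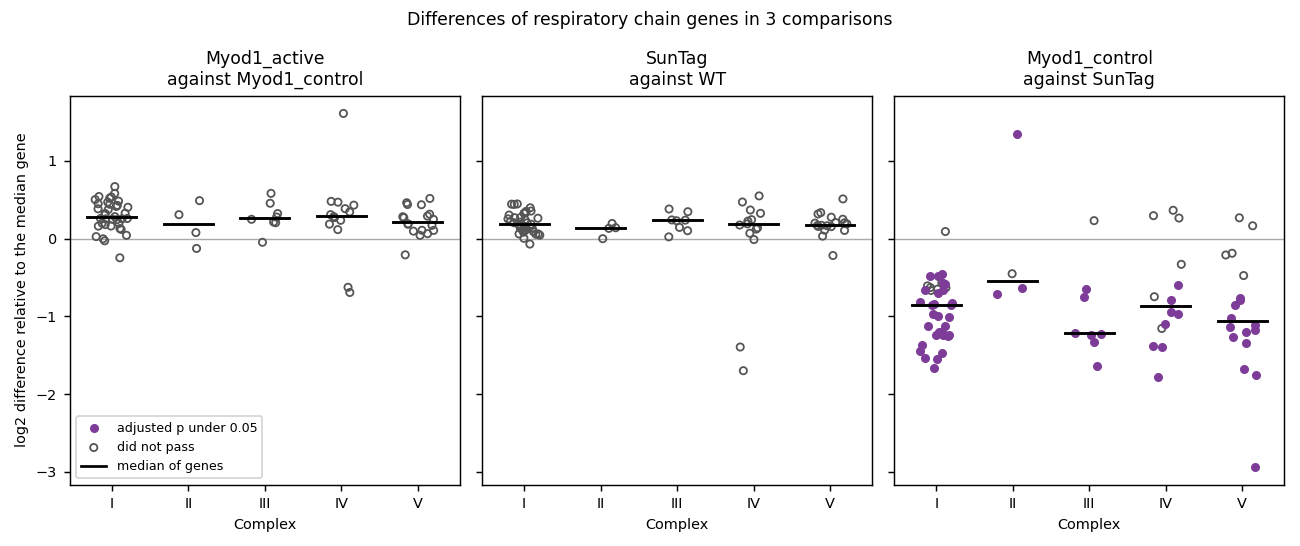
Log2 difference of each respiratory chain gene relative to the median gene, by complex, in the 3 comparisons; filled points passed a limma adjusted p under 0.05 and bars are medians of the genes. No point is filled in the first 2 panels, and in the third 60 filled points lie below 0 and 1, Sdha at 1.34, lies above.

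Complex II has 4 subunits, all of them nuclear, and they did not move together between the experiments. Sdha, the flavoprotein that oxidises succinate (chr13:74459702-74487728 on mm9), had 1648 FPKM in the Myod1_active library and 1382 and 1650.0 in the Myod1_control libraries, against 588 and 724 FPKM in the SunTag libraries and 615 and 680.00 in the WT libraries. All 3 libraries of the Myod1 experiment stood above all 4 others. Sdha averaged 1516 ± 189 FPKM in Myod1_control and 656 ± 96.0 FPKM in SunTag (SD, n = 2 each), 2.31-fold higher in Myod1_control, with a relative log2 difference of 1.34 (SE 0.185, limma adjusted p = 0.0215). That call held in 11 of 17 other settings, with limma adjusted p between 0.00817 and 0.0944.

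Sdhb and Sdhd were lower in Myod1_control, and Sdhc missed the threshold. Sdhb, the iron-sulfur protein that is the partner of Sdha, had 129.6 FPKM in the Myod1_active library and 95.1 and 111 in the Myod1_control libraries, against 182 and 171 FPKM in the SunTag libraries and 159 and 159 in the WT libraries. The anchors Sdhc and Sdhd bind coenzyme Q, and Sdhc had 146 and 119.7 FPKM in the Myod1_control libraries, against 189 and 209.7 FPKM in the SunTag libraries and 177 and 181 in the WT libraries. Sdhd had 82.3 and 71.7 FPKM in the Myod1_control libraries, against 148 and 132 FPKM in the SunTag libraries and 125 and 117 in the WT libraries. In all 3 genes Myod1_control lay below SunTag and WT without overlap, and for Sdhc and Sdhd the Myod1_active library lay among the SunTag and WT values. Relative log2 differences between Myod1_control and SunTag were -0.64 for Sdhb (limma adjusted p = 0.0258), -0.45 for Sdhc (adjusted p = 0.0516) and -0.72 for Sdhd (adjusted p = 0.0242). The ratio of Sdha to Sdhb was 12.7 in the Myod1_active library and 14.5 and 14.8 in the Myod1_control libraries, against 3.23 and 4.23 in the SunTag libraries and 3.86 and 4.27 in the WT libraries. That ratio did not overlap between the experiments, and within the Myod1 experiment it was lowest in the Myod1_active library.

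**Figure D4:**
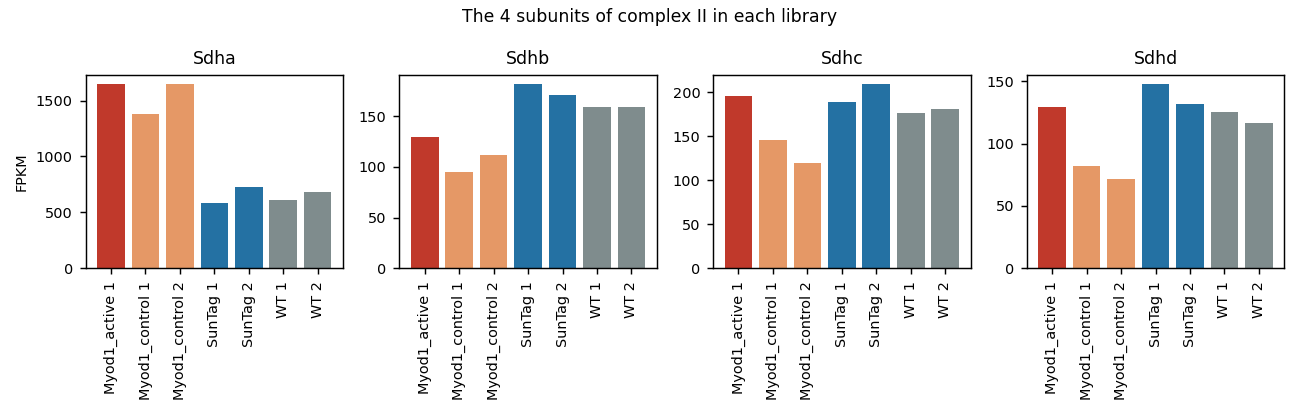
FPKM of the 4 subunits of complex II, 1 bar for each of the 7 libraries. Sdha is between 1382 and 1650.0 FPKM in the Myod1 experiment and between 588 and 724 FPKM in the other 4 libraries, while Sdhb, Sdhc and Sdhd are lowest in the 2 Myod1_control libraries.

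The promoters of the complex II genes are shown because these genes share a complex and yet differed in direction. Nuclear respiratory chain genes are known to be bound near their starts by NRF1 and by ETS factors such as GABPA. The 250 bases before the most upstream RefSeq start (GRCm38.p6) were read for 69 of the 84 genes, and Sdhc was not among them. Capitals mark the NRF1 motif, GCGCA and GCGC with any 1 base between them, and CCGGAAG, the core of the ETS motif, searched on both strands. Sdha (chr13:74350241-74350490, minus strand), Sdhb (chr4:140961021-140961270, plus strand) and Sdhd (chr9:50603850-50604099, minus strand) read 5′ to 3′ as follows.
Sdha: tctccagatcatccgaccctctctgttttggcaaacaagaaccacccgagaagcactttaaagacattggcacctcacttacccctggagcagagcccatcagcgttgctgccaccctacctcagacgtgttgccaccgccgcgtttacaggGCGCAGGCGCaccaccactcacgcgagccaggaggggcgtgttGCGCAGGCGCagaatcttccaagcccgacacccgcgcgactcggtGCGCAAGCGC
Sdhb: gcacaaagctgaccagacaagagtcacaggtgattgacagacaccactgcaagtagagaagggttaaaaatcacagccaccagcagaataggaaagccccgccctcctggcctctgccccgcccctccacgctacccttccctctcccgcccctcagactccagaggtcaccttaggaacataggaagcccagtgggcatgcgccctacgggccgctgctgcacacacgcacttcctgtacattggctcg
Sdhd: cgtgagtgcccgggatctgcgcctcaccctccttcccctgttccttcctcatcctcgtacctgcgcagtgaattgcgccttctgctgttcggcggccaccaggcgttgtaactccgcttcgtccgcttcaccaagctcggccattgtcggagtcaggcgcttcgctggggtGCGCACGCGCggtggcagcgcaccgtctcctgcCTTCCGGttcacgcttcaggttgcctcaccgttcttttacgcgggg
Sdha held 3 matches to the NRF1 letters, Sdhd held 1 match to each motif, and Sdhb held neither. A match describes the sequence and does not show binding.

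Over the 69 genes, 12 held the NRF1 letters (17.4%, against 3.87% of 27025 promoters of the same length) and 11 the ETS letters (15.9%, against 7.07%). Together 20 genes held at least 1 of the motifs, and in the 3 that held both, Atp5h, Cox6a1 and Sdhd, the matches did not overlap. The letters TCAAGGTCA, bound by estrogen-related receptors, were found in 1 gene, Atp5g3 (1.45%, against 0.366%), and AAGATGGC, bound by YY1, in none (against 1.58%). Of the 12 genes that held the NRF1 letters, Sdha was higher and Sdhd and Atp5k were lower in Myod1_control. A link between motif and direction was not tested.

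Among the genes named after complex I, 30 of 37 were lower in Myod1_control than in SunTag and none was higher. Of all genes, 17.0% were lower and 7.30% higher, and as given above these calls depend on few libraries. The 7 core subunits carry the flavin and iron-sulfur centres: 5 were lower, with a median of -0.63. Ndufs1, the largest of them, did not pass. It had 43.4 FPKM in the Myod1_active library and 29.5 and 35.3 in the Myod1_control libraries, against 33.5 and 33.2 FPKM in the SunTag libraries and 32.02 and 28.1 in the WT libraries, so that the groups overlapped, and its relative log2 difference was 0.09 (limma adjusted p = 0.842). Ndufv1, which binds NADH, had 159.7 and 169 FPKM in the Myod1_control libraries, against 243 and 250.1 FPKM in the SunTag libraries and 202 and 218 in the WT libraries and a difference of -0.45 (limma adjusted p = 0.0346), a call that was lost in 11 of 17 other settings. Ndufs8, with 2 iron-sulfur centres, had 41.2 and 35.4 FPKM in the Myod1_control libraries, against 93.4 and 76.9 FPKM in the SunTag libraries and 76.2 and 79.4 in the WT libraries and a difference of -0.99.

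Of the 30 other genes named after complex I, which are mostly accessory subunits and include Ndufa4 and Ndufa4l2, 25 were lower, with a median of -0.98. Their median transcript length was 674.5 nt, against 1312 nt for the 7 core subunits. Shorter transcripts differed more in this comparison, as given below, and the part of length in the class medians was not tested. The largest fall was that of Ndufa3, a small membrane-arm subunit, which had 308 FPKM in the Myod1_active library and 182 and 173 in the Myod1_control libraries, against 710.1 and 539.96 FPKM in the SunTag libraries and 566 and 569 in the WT libraries. Its relative log2 difference was -1.66 (SE 0.176, limma adjusted p = 0.0151), and the Myod1_active library lay between its controls and the other experiment. Ndufb4 had 24.7 and 22.9 FPKM in the Myod1_control libraries, against 102 and 60.9 FPKM in the SunTag libraries and 61.8 and 52.7 in the WT libraries, a difference of -1.55, and Ndufa1 had 127 and 105 FPKM in the Myod1_control libraries, against 459 and 297 FPKM in the SunTag libraries and 282 and 255 in the WT libraries, a difference of -1.53. The 2 subunits with the smallest called falls in this class were Ndufa9, with 62.9 and 59.9 FPKM in the Myod1_control libraries, against 99.2 and 91.1 FPKM in the SunTag libraries and 81.9 and 87.9 in the WT libraries, and Ndufa8, with 81.4 and 72.7 FPKM in the Myod1_control libraries, against 132 and 119.8 FPKM in the SunTag libraries and 122 and 140.2 in the WT libraries. Their differences were -0.49 and -0.57. Ndufa4l2, the hypoxia-induced relative of Ndufa4, had 0.752 to 3.14 FPKM and did not pass (limma adjusted p = 0.118). Its span overlaps that of Shmt2.

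In complex III, 7 of 8 genes were lower in Myod1_control, against 17.0% of all genes. The exception was Uqcrc1, 1 of the 2 core proteins, with 176 FPKM in the Myod1_active library and 146 and 158 in the Myod1_control libraries, against 134 and 152 FPKM in the SunTag libraries and 133 and 145 in the WT libraries. Its relative log2 difference was 0.23 (limma adjusted p = 0.636). The other core protein, Uqcrc2, had 168 FPKM in the Myod1_active library and 118 and 124 in the Myod1_control libraries, against 210.2 and 207 FPKM in the SunTag libraries and 171 and 181 in the WT libraries, with Myod1_control lowest, and its difference was -0.65 (limma adjusted p = 0.0217). The ratio of Uqcrc1 to Uqcrc2 was 1.05 in the Myod1_active library and 1.24 and 1.27 in the Myod1_control libraries, against 0.637 and 0.732 in the SunTag libraries and 0.774 and 0.803 in the WT libraries, without overlap between the experiments. The Rieske iron-sulfur protein Uqcrfs1 had 78.7 and 78.3 FPKM in the Myod1_control libraries, against 152 and 141 FPKM in the SunTag libraries and 121 and 124 in the WT libraries. The 5 small subunits Uqcrb, Uqcrq, Uqcrh, Uqcr10 and Uqcr11 were all lower, with a median of -1.23. Their median transcript length was 474.5 nt, against 1653 nt for Uqcrc1, Uqcrc2 and Uqcrfs1. Uqcrh, the hinge protein that meets cytochrome c, fell most: it had 124 and 123 FPKM in the Myod1_control libraries, against 595 and 304 FPKM in the SunTag libraries and 334 and 313 in the WT libraries, a difference of -1.64 (SE 0.331, limma adjusted p = 0.0271).

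In complex IV, 8 of 14 tested genes were lower and none was higher, against 17.0% and 7.30% of all genes. Cox6b1, the subunit on the side facing cytochrome c, had 278 FPKM in the Myod1_active library and 207 and 180.3 in the Myod1_control libraries, against 651 and 470.3 FPKM in the SunTag libraries and 475 and 450.4 in the WT libraries, with the 3 libraries of the Myod1 experiment below the other 4. Its relative log2 difference was -1.38 (SE 0.203, limma adjusted p = 0.0191). Cox6c had 223 and 200.5 FPKM in the Myod1_control libraries, against 763 and 489 FPKM in the SunTag libraries and 483 and 483 in the WT libraries, a difference of -1.39. Cox7a1 had 2.33 and 4.32 FPKM in the Myod1_control libraries, against 19.6 and 11.3 FPKM in the SunTag libraries and 11.8 and 14.2 in the WT libraries, and fell by 1.78 (limma adjusted p = 0.0260). The abundant Cox6a1 did not pass, with 857 and 702 FPKM in the Myod1_control libraries, against 1089.9 and 1056 FPKM in the SunTag libraries and 859 and 1108 in the WT libraries and a difference of -0.33 (limma adjusted p = 0.142). Cox7a2l, of the subunit 7a family, had 27.8 and 25.8 FPKM in the Myod1_control libraries, against 63.6 and 52.04 FPKM in the SunTag libraries. The WT libraries had 60.3 and 54.7 FPKM, and the relative log2 difference between Myod1_control and SunTag was -0.94 (limma adjusted p = 0.0201). Cox6b2, the testis form of subunit 6b, stayed between 0.448 and 2.16 FPKM in all libraries.

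In complex V, 13 of 18 genes were lower, against 17.0% of all genes. Atp5k, subunit e in the membrane part that holds ATP synthase dimers together (chr5:108862263-108863467 on mm9), showed the largest difference of all 81 genes. It had 141 FPKM in the Myod1_active library and 111 and 109.5 in the Myod1_control libraries, against 1119.8 and 782 FPKM in the SunTag libraries and 741 and 889.96 in the WT libraries. The 3 libraries of the Myod1 experiment lay close together and far below the other 4. Atp5k averaged 110.4 ± 1.23 FPKM in Myod1_control and 951 ± 239 FPKM in SunTag (SD, n = 2 each), 8.61-fold lower in Myod1_control. Its relative log2 difference was -2.94 (SE 0.221, limma adjusted p = 0.0118), between -3.20 and -2.69 over 17 other settings, 13 of which kept the call. Its partners in the same part of the enzyme had smaller differences, a contrast that was not tested: subunit f, Atp5j2, had 142 and 119 FPKM in the Myod1_control libraries, against 629 and 371 FPKM in the SunTag libraries and 357 and 316 in the WT libraries and a difference of -1.75, and subunit g, Atp5l, had 113 and 107 FPKM in the Myod1_control libraries, against 351 and 202 FPKM in the SunTag libraries and 221 and 203 in the WT libraries and a difference of -1.14. The ratio of Atp5k to Atp5l was 0.890 in the Myod1_active library and 0.986 and 1.02 in the Myod1_control libraries, against 3.19 and 3.86 in the SunTag libraries and 3.35 and 4.39 in the WT libraries. Atp5k also had the shortest transcript of the 83 genes with a known length, 321.5 nt, against 544 nt for Atp5l and 747.5 nt for Atp5j2. Shorter transcripts differed more in this comparison, as given below, and the part of length in the fall of Atp5k was not tested. The promoter of Atp5k is shown because the gene fell most (chr5:108434400-108434649, minus strand, RefSeq on GRCm38.p6, capitals as above), and it held 1 match to the NRF1 letters.
Atp5k: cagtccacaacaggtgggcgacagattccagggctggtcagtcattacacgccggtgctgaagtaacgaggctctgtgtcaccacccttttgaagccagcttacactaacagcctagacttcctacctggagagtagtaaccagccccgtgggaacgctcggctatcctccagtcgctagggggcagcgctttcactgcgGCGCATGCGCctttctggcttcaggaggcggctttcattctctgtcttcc

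In the catalytic head of ATP synthase the 2 large subunits did not pass and the central stalk was lower. Atp5b had a relative log2 difference of 0.16 (limma adjusted p = 0.903). Its partner Atp5a1, the alpha subunit, had 547 FPKM in the Myod1_active library and 422 and 471 in the Myod1_control libraries, against 561 and 573 FPKM in the SunTag libraries and 498 and 548 in the WT libraries and a difference of -0.21 (limma adjusted p = 0.131). In the central stalk Atp5e, the epsilon subunit, had 280.2 and 244 FPKM in the Myod1_control libraries, against 1068 and 790.5 FPKM in the SunTag libraries and 847 and 841 in the WT libraries and a difference of -1.67 (limma adjusted p = 0.0162), and Atp5c1 and Atp5d, gamma and delta, had differences of -0.80 and -0.77. All 4 peripheral stalk subunits, Atp5f1, Atp5h, Atp5j and Atp5o, were lower, with a median of -1.07 and a median transcript length of 790 nt. The span given for Atp5o holds Cryzl1 and Itsn1 and that for Atp5j overlaps Gabpa, and the sources used here do not give whether reads were assigned by strand.

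The proton-carrying c ring is made of 1 protein encoded by 3 genes that differ only in their targeting peptide. Atp5g1 had 154 and 164 FPKM in the Myod1_control libraries, against 433 and 362 FPKM in the SunTag libraries and 348 and 356 in the WT libraries (relative log2 difference -1.17, limma adjusted p = 0.0167). Atp5g2 had 87.9 and 93.2 FPKM in the Myod1_control libraries, against 282 and 206 FPKM in the SunTag libraries and 194 and 221 in the WT libraries (difference -1.27, limma adjusted p = 0.0198). Atp5g3, the most abundant, had 403 and 364 FPKM in the Myod1_control libraries, against 659.8 and 519.6 FPKM in the SunTag libraries and 495 and 538 in the WT libraries (difference -0.48, limma adjusted p = 0.0622). All 3 genes were lower in both Myod1_control libraries than in the SunTag and WT libraries, and the third did not pass. The share of the 3 that came from Atp5g3 was 58.3% in the Myod1_active library and 62.5 and 58.6 in the Myod1_control libraries, against 48.00 and 47.8% in the SunTag libraries and 47.7 and 48.2 in the WT libraries. That share did not overlap between the experiments. Atp5l2, an intronless copy of Atp5l with 25.8 to 101 FPKM, may share reads with it and is uncertain. Atp5sl, whose protein is now known as an assembly factor of complex I, and Atp5s did not pass.

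Short transcripts of the set differed most between the experiments. Over 75 genes with at least 10 FPKM and a transcript length (the median of the basic coding transcripts of GENCODE vM21), the relative log2 difference between Myod1_control and SunTag was less negative in longer transcripts, with a Spearman rho of 0.64 and a Pearson r of 0.66. This is across genes that share the same 4 libraries. With the longest or the shortest principal coding transcript as the length, rho was 0.59 or 0.74. The 26 genes under 600 nt had a median of -1.24, the 23 genes from 600 nt to under 1000 nt had -0.99, the 20 genes from 1000 nt to under 2000 nt had -0.64, and the 6 genes of 2000 nt or more had -0.40. The same order held in the other genes of at least 10 FPKM, with medians of -1.02, -0.66, -0.17 and 0.28 over 143, 524, 1601 and 2532 genes. In each length class the median of the respiratory chain genes lay below that of the other genes. Single genes overlapped, and the difference was not tested. Among the 6 genes of 2000 nt or more, Ndufb2 and Atp5g1 also have principal transcripts of 455 and 596 nt. Their differences were -1.24 and -1.17.

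Within libraries, the median of the genes under 600 nt divided by that of the genes of 1000 nt or more was 1.32 in the Myod1_active library and 1.30 and 1.109 in the Myod1_control libraries, against 2.51 and 1.73 in the SunTag libraries and 1.87 and 1.66 in the WT libraries. Each library of the Myod1 experiment was below each of the others. In Myod1_active against Myod1_control the relation ran the other way, with a rho of -0.47, and in SunTag against WT it was -0.21. Genes spanning less than 300 bp, none of which belongs to the set, took 40.5% to 45.4% of the FPKM sum in the Myod1 experiment and 49.7% to 57.9% in the SunTag and WT libraries. The mitochondrial gene mt-Ts1, which is among them, took 5.80% to 8.32% in the Myod1 experiment and 26.3% to 33.4% in the SunTag and WT libraries. Without mt-Ts1, these short genes took a larger share in the Myod1 experiment than in the SunTag and WT libraries. The part of library preparation or RNA quality in these differences was not tested.

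**Figure D5:**
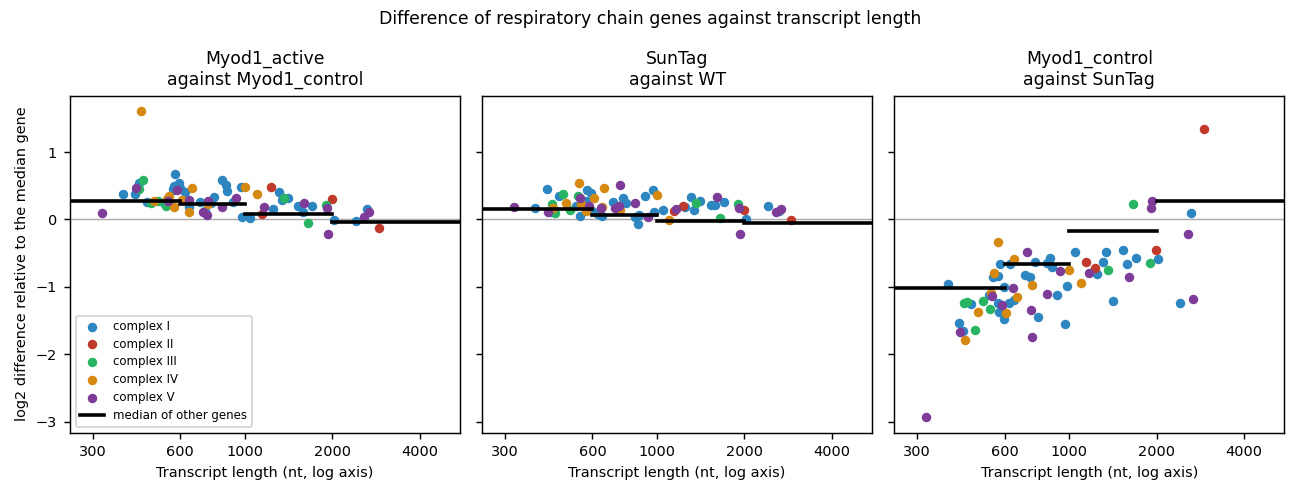
Relative log2 difference of 75 respiratory chain genes against transcript length (log axis, nt) in the 3 comparisons; points are coloured by complex and bars give the median of other genes in 4 length classes. In the third panel the points under 600 nt have a median of -1.24 and those of 2000 nt or more a median of -0.40, with Sdha at 1.34 and Atp5k at -2.94 farthest from the rest.

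Of the 13 subunits encoded by mitochondrial DNA, 5 were higher in Myod1_control than in SunTag and none was lower (limma adjusted p under 0.05), against 7.30% of all genes higher and 17.0% lower, with a median of 0.89. Without either Myod1_control library, or without either WT library, none of the 13 passed. Without SunTag replicate 1, 1 was higher, and without SunTag replicate 2, 2 were higher and 1 lower. Those 5 were mt-Nd2, mt-Nd4l and mt-Nd5 of complex I, mt-Co1 of complex IV and mt-Atp8 of complex V. The mt-Nd5 transcript had 2508 FPKM in the Myod1_active library and 2755 and 3977 in the Myod1_control libraries, against 923 and 1042 FPKM in the SunTag libraries and 839 and 748 in the WT libraries, all 3 libraries of the Myod1 experiment above all 4 others. The sum of the 13 divided by the sum of the 84 nuclear genes was 5.26 in the Myod1_active library and 7.26 and 10.5 in the Myod1_control libraries, against 2.78 and 2.82 in the SunTag libraries and 2.71 and 2.59 in the WT libraries. In the other 2 comparisons none of the 13 passed. Their medians were -0.48 for Myod1_active against Myod1_control, with all 13 below the median gene, and 0.28 for SunTag against WT, with all 13 above it.

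Partners of the chain that the naming rule leaves out were divided between Myod1_control and SunTag: of 11 tested, 6 were lower and 2 higher, against 17.0% of all genes lower and 7.30% higher. None of the 11 passed without either Myod1_control library or without either WT library, and without SunTag replicate 1, 3 were lower and 1 higher. Atpif1, the inhibitor of ATP synthase, had 16.7 FPKM in the Myod1_active library and 10.6 and 9.77 in the Myod1_control libraries, against 62.7 and 46.5 FPKM in the SunTag libraries and 50.1 and 43.7 in the WT libraries and a relative log2 difference of -2.17 (limma adjusted p = 0.0137). Ndufab1, the acyl carrier protein within complex I, had a difference of -1.08, and Usmg5, a small subunit of ATP synthase, one of -1.27. Etfa, Etfb and the uncoupling protein gene Ucp2 were the other 3 that were lower. Etfdh, which passes electrons of fatty acid oxidation to coenzyme Q, was higher, with 163 and 172 FPKM in the Myod1_control libraries, against 69.8 and 91.6 FPKM in the SunTag libraries (difference 1.19, limma adjusted p = 0.0237). Gpd2, the glycerol-3-phosphate dehydrogenase that feeds coenzyme Q, was higher as well, with a difference of 1.69. Cytochrome c itself, Cycs, had 27.9 and 31.8 FPKM in the Myod1_control libraries, against 73.9 and 37.1 FPKM in the SunTag libraries and did not pass. In the other 2 comparisons none of the 11 passed.

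Of 16 genes of the Krebs cycle, in the same compartment, 3 were lower (Idh3b, Sucla2 and Mdh2) and none higher between Myod1_control and SunTag, a share near the 17.0% of all genes that were lower, with a median of -0.11. Those 3 calls were lost without either Myod1_control library, either WT library or SunTag replicate 1, and under median-ratio, quantile or equal-total scaling. None of the 16 passed in the other 2 comparisons. Markers of several other cell types differed between the experiments as well. Of 8 endothelial markers 7 were lower in Myod1_control, and their sum was 36.8 FPKM in the Myod1_active library and 52.1 and 55.3 in the Myod1_control libraries, against 183 and 191 FPKM in the SunTag libraries and 189 and 177 in the WT libraries. Of 7 macrophage markers with a row 5 were lower, with sums of 43.1 FPKM in the Myod1_active library and 39.3 and 42.3 in the Myod1_control libraries, against 290.4 and 200.2 FPKM in the SunTag libraries and 181 and 228 in the WT libraries. Of 7 red cell markers 4 were lower and 1 higher, with sums of 39.7 FPKM in the Myod1_active library and 45.9 and 40.1 in the Myod1_control libraries, against 6391 and 3921 FPKM in the SunTag libraries and 2337 and 2358 in the WT libraries. Lymphocyte markers (6 of 6 tested) and stellate cell markers (4 of 8) were lower too, with sums of at most 1.33 and 32.3 FPKM in the Myod1 experiment and at least 7.85 and 77.5 FPKM in the others. Of 8 hepatocyte markers 1 was higher and 1 lower. The same held for 5 bile duct markers and for 3 fat cell markers tested. Of 12 heart markers and 1 skeletal muscle marker tested, none passed. Without Myod1_control replicate 1 none of the endothelial, macrophage, lymphocyte and stellate markers passed, while 4 red cell markers were lower without any 1 of the Myod1_control or WT libraries. The part of these cells in the respiratory chain differences was not tested.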

How the data were processed

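The labels' protocols state that total liver RNA was extracted with a column kit and sequenced as standard Illumina libraries. The submitters' processing notes name cutadapt 1.11, Cufflinks 2.2.1 and TopHat2 2.1.1 and the build mm9. Each library came as 1 deposited table of the authors' FPKM values by gene, per the file headers, and depth was unknown. Rows with a failed status in any library (343) were left out and rows sharing a symbol (244 symbols) were summed. Genes reaching 1 FPKM in at least 1 library (15744) entered a limma fit (version 3.58.1, R 4.3.3) of log2(FPKM + 1): 1 mean per group over all 7 libraries, a variance trend (3 residual and 1.93 prior degrees of freedom), two-sided, Benjamini-Hochberg adjusted over all genes, threshold 0.05. Standard errors, p-values, calls and overlap counts use the difference before the median gene's shift is taken off. Because 1 is added, changes of genes near 0 FPKM come out too small. No 2 libraries shared more than 1 identical value above 0.

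The members and lists were chosen with earlier results of these data known. Genes named are the 2 highest and the lowest member of each complex, members past the threshold, the 2 largest differences of each of the first 2 comparisons, all complex II subunits, tissue forms, and members never at 1 FPKM; fewer were named than this allows, and some, such as Ndufs8 and Esrra, were picked after their values were seen. Coordinates are the tables' own on mm9, counted from 1; promoters are from RefSeq on GRCm38.p6 and were not joined by position. The fit was tested on simulated data. Alternatives were another pseudocount, filters, scalings, fits and each library left out; leaving out genes spanning under 300 bp together with median-ratio scaling was chosen after seeing the data.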

Additional observations from a re-analysis of the deposited data

How the results depend on the processing

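The direction of each median held under every setting tried, 17 per comparison, and the adjusted count was 0 throughout for Myod1_active against Myod1_control and SunTag against WT. The median for Myod1_active against Myod1_control was 0.454 with no filter on low values. That for SunTag against WT ranged from 0.0136 to 0.354 when 1 library was left out. That for Myod1_control against SunTag was -0.703 after quantile normalization and ranged from -1.09 to -0.711 when 1 library was left out. Its count of genes called was 61, ranged from 0 to 67 when 1 library was left out and was 1 with only the libraries of both groups, settings with fewer libraries and fewer residual degrees of freedom. Other settings gave 41 to 68. Replicate numbers showed no pairing across all genes: deviations of same-numbered libraries correlated at 0.000757, 0.0341 and 0.0425. A correlation over all genes cannot exclude a pairing that touches a part of them. With a replicate block the 3 comparisons called 0, 0 and 56 genes, with medians of 0.188, 0.185 and -0.851. Depth was unknown, so no counting error could be given, and Myod1_active had 1 library.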

Other observations

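Assembly factors and regulators of the respiratory chain were read from the same fit, in which 17.0% of all genes were lower and 7.30% higher in Myod1_control than in SunTag. Between Myod1_control and SunTag, 1 of 10 complex I assembly factors was lower, Ndufaf2, with 9.84 and 6.98 FPKM in the Myod1_control libraries, against 24.9 and 19.00 FPKM in the SunTag libraries and a relative log2 difference of -1.16 (limma adjusted p = 0.0240). Of 21 assembly factors of complexes II to V, 5 were lower and 1 higher. Both counts lie near the shares of all genes. Sdhaf1, needed for the iron-sulfur protein of complex II, had 3.55 FPKM in the Myod1_active library and 1.67 and 1.70 in the Myod1_control libraries, against 6.34 and 7.11 FPKM in the SunTag libraries and 5.47 and 6.93 in the WT libraries and a difference of -1.39 (limma adjusted p = 0.0151). Cox17, a copper carrier to cytochrome c oxidase, had 35.5 and 48.02 FPKM in the Myod1_control libraries, against 169.9 and 101 FPKM in the SunTag libraries and a difference of -1.51 (limma adjusted p = 0.0261). Sdhaf2, Cox16 and Cmc1 were lower too, and Lrpprc, which stabilises mitochondrial mRNAs, was higher, with a difference of 0.90 (limma adjusted p = 0.0348). The medians were 0.00 and -0.02 for the 10 and the 21 genes. None of 12 genes of coenzyme Q synthesis passed by limma, and 1 had an unadjusted p under 0.05.

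Of 17 regulators of mitochondrial genes, 4 were higher and 1 lower in Myod1_control than in SunTag, against 7.30% of all genes higher and 17.0% lower. Of the assembly factors and regulators none passed without either Myod1_control library or without either WT library, and without SunTag replicate 1, 1 regulator was higher and 1 assembly factor lower. Ppara, a receptor that controls fatty acid oxidation, had 50.9 and 63.5 FPKM in the Myod1_control libraries, against 19.5 and 17.4 FPKM in the SunTag libraries and a difference of 1.71 (limma adjusted p = 0.0151). Ppargc1a, the PGC-1 alpha coactivator, was higher with 3.14 and 3.13 FPKM in the Myod1_control libraries, against 1.32 and 0.919 FPKM in the SunTag libraries (limma adjusted p = 0.0460). Gabpa and the mitochondrial RNA polymerase Polrmt were higher, and Tfb1m was lower. Nrf1 had 3.76 and 3.87 FPKM in the Myod1_control libraries, against 4.61 and 4.12 FPKM in the SunTag libraries and did not pass (limma adjusted p = 0.369). None of these lists had a gene past the threshold in the other 2 comparisons. In Myod1_active against Myod1_control the estrogen-related receptor gene Esrra had 62.3 FPKM in the Myod1_active library, against 27.5 and 32.1 FPKM in the Myod1_control libraries, with a difference of 0.79 and a limma adjusted p of 0.158.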
